A study of Mus musculus with 8 samples.

Results

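Cytochrome P450 enzymes of families 1 to 3 are heme proteins of the endoplasmic reticulum that insert an oxygen atom into drugs, plant compounds, steroids and fatty acids. Liver expresses many of them, most in the hepatocytes around the central vein, and several are induced when a foreign compound is bound by the nuclear receptors CAR or PXR or by the aryl hydrocarbon receptor AhR. The members of a subfamily arose by gene duplication and lie side by side in clusters, and some in mouse liver also differ between the sexes. Members were taken as every gene whose symbol is Cyp, a family number from 1 to 3, a subfamily letter and a number, and that is named alone by a probe set. There were 53 such genes among the 19938 genes measured, each with 1 probe set.

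The genes were measured in liver RNA of 8 female C57B1/6J mice, on 1 Affymetrix Mouse Gene 1.0 ST array per mouse. All 8 mice had been ovariectomized (OVX) at 7 weeks of age as a model of the postmenopausal state, which removes the ovaries but not the estrogen made by other tissues. For 3 months 4 of them were fed with a high fat diet (HFD) and 4 with HFD that contained white button mushroom powder (HFD+WBM), with food weight matched between the diets. No sham-operated mice are on these arrays, so every comparison is one of diets within OVX mice.

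Values are the deposited log2 signals, and a difference of 1 is a 2-fold change. The array medians were 7.04 to 7.22, and the array of HFD replicate 3 stood farthest from the others. Of 9 hepatocyte markers measured none passed p under 0.05 in limma. Their mean log2 signal per mouse was 13.38 to 13.54 with HFD and 13.38 to 13.48 with HFD+WBM, and each had a mean between 11.69 and 14.10, among the highest signals of the arrays. All 14 macrophage markers, Kupffer cells included, had a lower mean signal in HFD+WBM mice. Of these, 11 passed p under 0.05 before adjustment in limma, where 6.90% of all genes were called lower. The mean of the 14 per mouse was 8.80 to 9.47 with HFD and 8.29 to 8.80 with HFD+WBM. Of 8 markers of stellate cells 7 had a lower mean signal, and 4 of them passed. Their mean per mouse was 8.10 to 8.90 with HFD and 7.70 to 8.31 with HFD+WBM. All 5 endothelial markers had a lower mean signal, and 1 passed (Lyve1, just over 2-fold lower). Of the 14 macrophage markers, 3 had a mean below the median of all genes. The part of macrophages, stellate cells and endothelial cells in the P450 results was not tested. In bulk liver RNA, fewer cells of a type and less RNA per cell cannot be told apart.

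OVX mice fed with HFD+WBM had higher signals of 6 P450 genes and lower signals of 2 than OVX mice fed with HFD, at p under 0.05 before adjustment in limma. The 6 were Cyp2b10, the best known target of CAR, Cyp2j9, Cyp2c37, Cyp2c66 and Cyp2c50, which belong to subfamilies that oxidize arachidonic acid, and Cyp1a2, the enzyme that demethylates caffeine. The 2 were Cyp2j6 and Cyp1a1. The largest of these changes was that of Cyp2b10, 2.53-fold, and the other 7 were between 1.43-fold and 1.75-fold. The 6 genes make 11.3% of the P450 genes, where 4.85% of all genes were called higher, and the 2 genes make 3.77%, where 6.90% of all genes were called lower. Cyp2b10 was the only P450 gene that also passed the study's 2-fold threshold, which 0.266% of all genes passed upward and 0.497% downward.

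No P450 gene passed an adjusted p under 0.05 over all genes, the lowest being 0.37, and by limma 0% of all genes did. The methods' t-test also gave none, with 2596 genes at p under 0.05 before adjustment. When the prior variance in limma was allowed to follow the signal level, 139 genes passed an adjusted p under 0.05, and Cyp2b10 (0.0196), Cyp2c37 (0.0349) and Cyp1a2 (0.0472) were among them. With an offset of 64 before the log 80 genes passed, of the P450 genes Cyp2b10 (0.0392), and among the 50% brightest genes 19 passed, none of them a P450 gene. No P450 gene passed an adjusted p under 0.05 in any other setting. Before adjustment, 12 P450 genes were higher where the prior variance followed the signal (5.36% of all genes), 10 without HFD replicate 1 (4.22% of all genes) and 4 without HFD replicate 4 (3.63% of all genes). Of the 8 genes, Cyp1a2, Cyp2b10, Cyp2c37 and Cyp2j9 stayed higher and Cyp2j6 stayed lower at p under 0.05 before adjustment in all 17 other settings, each left-out mouse included.

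Across all 53 genes the estimates leaned upward. In 35 genes (66.0%) the HFD+WBM mean was above the HFD mean, against 50.7% of all genes, and the median log2 fold change was 0.14, against 0.01 over all genes. Of the 53 genes, 45 did not pass the test. The HFD+WBM values of 1 gene (Cyp2d22) all lay above the HFD values, where 3.21% of all genes did so, and those of 2 genes (Cyp2c70 and Cyp2j6) all lay below, where 5.02% did.

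**Figure D1:**
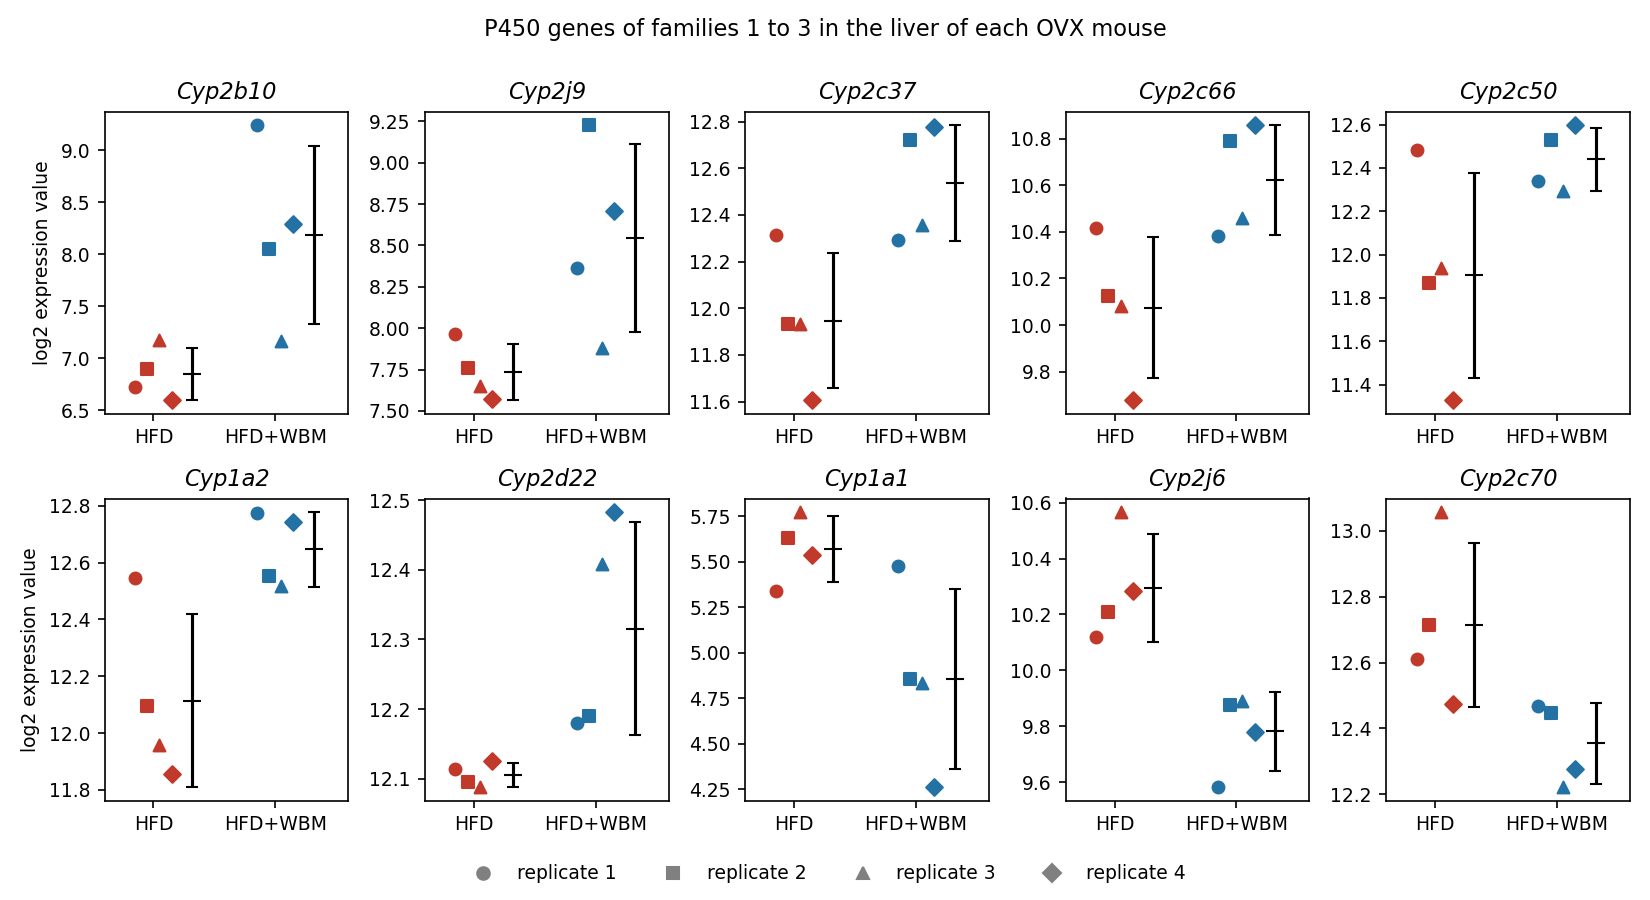
Log2 expression value in each of the 8 mice of the 8 P450 genes past p under 0.05 before adjustment and of Cyp2d22 and Cyp2c70, with 1 panel per gene, 1 marker shape per replicate number and the mean and SD of each diet in black. Every HFD+WBM mouse lies above the HFD mice in Cyp2d22 and below them in Cyp2j6 and Cyp2c70, and the vertical axes differ between panels and do not start at 0.

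The Cyp2b subfamily, steroid and drug hydroxylases that include Cyp2b10, the best known target of CAR, had all 5 members above 0. Their median log2 fold change was 0.36, and 50.7% of all genes were above 0. Of the 5, 1 passed the test (higher), where 4.85% of all genes did. The sequences that precede the transcription start of Cyp2b10 and of Cyp2b9, a gene of higher expression in female than in male liver, are shown because the former gene passed the test and the latter did not. They are the 250 bases before the start from RefSeq (build GRCm38.p6), read 5′ to 3′ on the strand of the gene, and capitals mark every match on either strand to 1 of 4 motifs searched here and in the other sequences shown. The motifs were TATAAA, the usual core promoter box, and GCGTG, the core bound by AhR with its partner. The remaining motifs, half-sites bound by nuclear receptors, were AGTTCA, which is common in sites of PXR and CAR, and the sequence AGGTCA, which many other receptors of this family bind. Sites of different motifs did not overlap in the sequences shown.
Cyp2b10 (chr7:25897408-25897657, plus strand): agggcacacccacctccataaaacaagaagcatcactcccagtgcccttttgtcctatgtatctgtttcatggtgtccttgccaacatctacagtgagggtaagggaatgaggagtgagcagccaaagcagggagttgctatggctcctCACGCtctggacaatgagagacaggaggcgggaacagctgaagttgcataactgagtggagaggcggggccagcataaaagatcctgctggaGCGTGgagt
Cyp2b9 (chr7:26173159-26173408, plus strand): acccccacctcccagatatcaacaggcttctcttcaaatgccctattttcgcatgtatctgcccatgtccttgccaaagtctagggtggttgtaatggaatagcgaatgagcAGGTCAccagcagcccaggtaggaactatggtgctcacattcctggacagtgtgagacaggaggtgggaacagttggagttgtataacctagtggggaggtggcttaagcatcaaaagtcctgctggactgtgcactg
The Cyp2b10 sequence held GCGTG on the plus strand from position -9 and on the minus strand from position -101, and the Cyp2b9 sequence held AGGTCA from -138, where -1 is the last base before the start. The same letters were found in 28.2% (GCGTG) and 14.0% (AGGTCA) of all 32851 such windows, so a match describes the sequence only. The Cyp2b9 window was 99.2% identical to that of Cyp2b13 and 68.9% identical to that of Cyp2b10. The enhancer through which CAR acts on Cyp2b10 lies farther upstream and is not in this window.

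Cyp2b10 had log2 signals of 6.73, 6.90, 7.18 and 6.60 in HFD replicates 1 to 4 and of 9.24, 8.05, 7.16 and 8.29 in HFD+WBM replicates 1 to 4. The HFD mice were close together, 3 of the HFD+WBM mice were above all of them, and HFD+WBM replicate 3 lay within their range. The means were 6.85 ± 0.25 in OVX mice fed with HFD and 8.19 ± 0.85 in OVX mice fed with HFD+WBM (mean and SD, n = 4 each). The log2 fold change was 1.34 (standard error, SE, 0.37), with an adjusted p of 0.37 in limma and an exact two-sided permutation p of 0.057, where 4 mice against 4 cannot go below 0.029. The change was 0.99 without HFD+WBM replicate 1, under 2-fold, and 1.68 without HFD+WBM replicate 3.

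Cyp2b9 and Cyp2b13, the pair with near-identical upstream sequence and the female-biased members, did not pass. Cyp2b9 had 13.14, 12.87, 12.85 and 12.78 with HFD and 13.00, 13.13, 13.24 and 13.26 with HFD+WBM, a difference of 0.25 (SE 0.15). Cyp2b13 had 12.74, 12.38, 12.40 and 12.38 with HFD and 12.70, 12.60, 12.86 and 13.17 with HFD+WBM, a difference of 0.36 (SE 0.17). In Cyp2b13 HFD replicate 1 stood above the other 3 HFD mice, and without that mouse the difference was 0.45 and passed p under 0.05 in limma. Cyp2b13 passed before adjustment in 6 of the 17 other settings, that one included. The remaining members, Cyp2b19 and Cyp2b23, had differences of 0.37 and 0.16, with 95% intervals of -0.09 to 0.84 and -0.33 to 0.65.

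**Figure D2:**
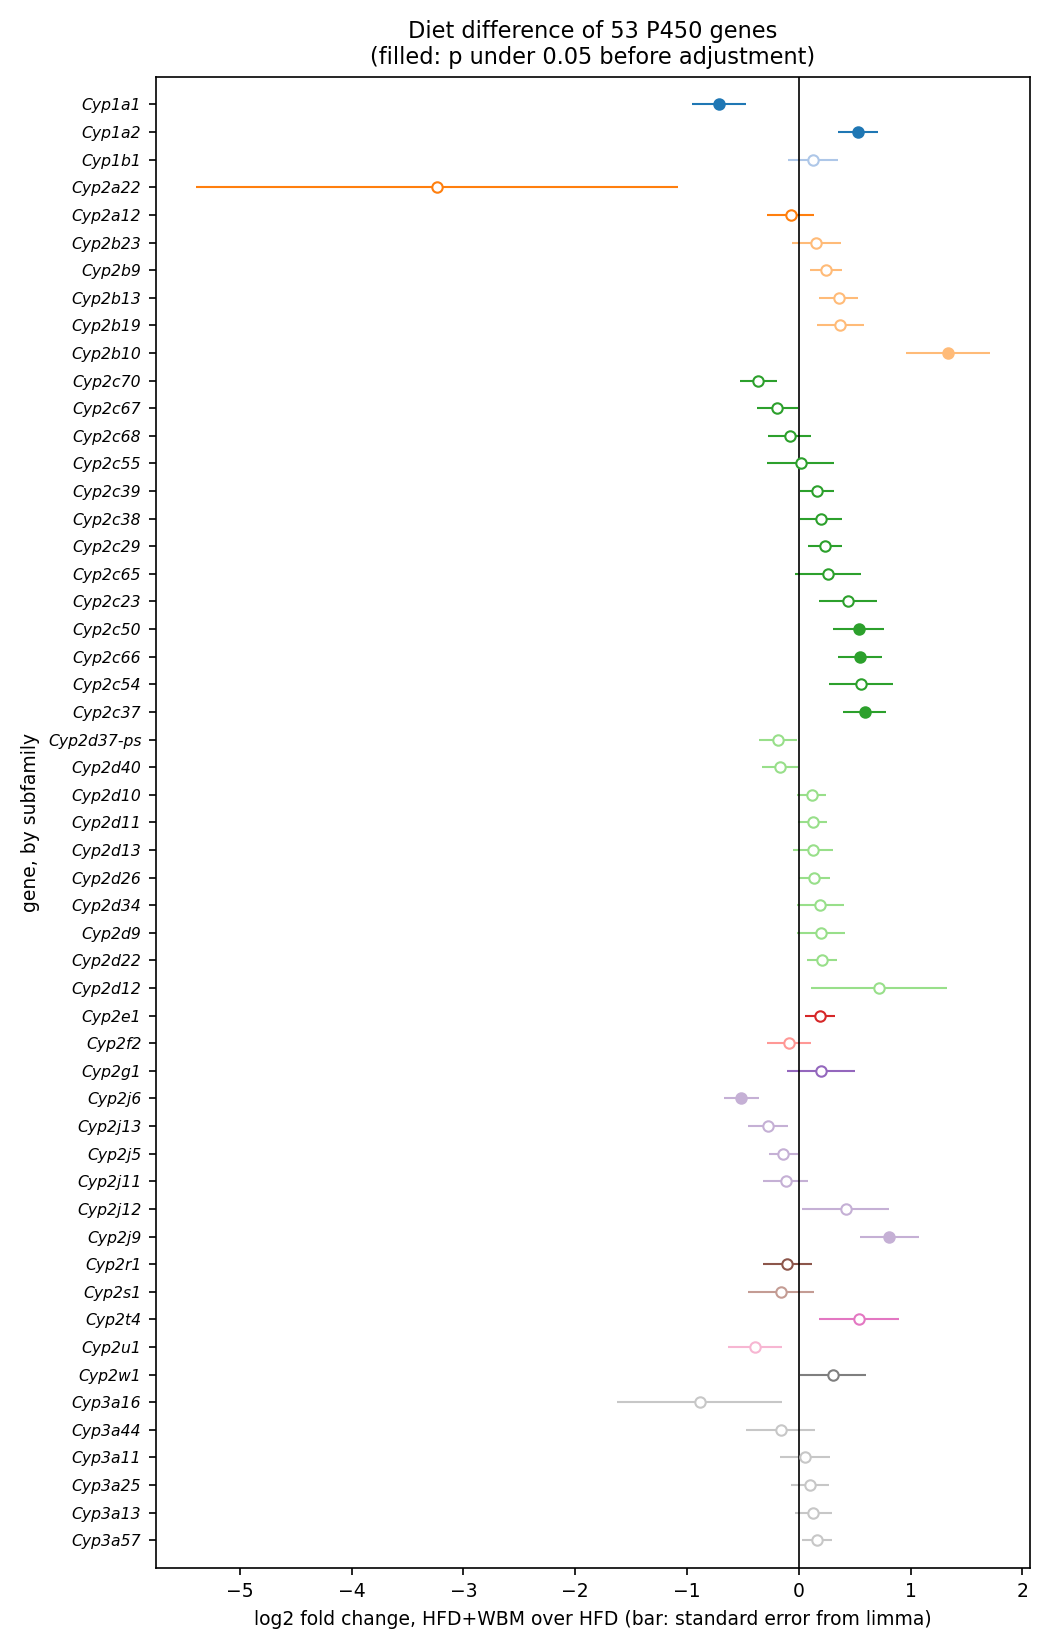
Log2 fold change (HFD+WBM over HFD, horizontal axis) of each of the 53 P450 genes, 1 line per gene, with the limma standard error as a bar, 1 colour per subfamily and filled points for genes past p under 0.05 before adjustment. All 5 Cyp2b genes lie above 0, and Cyp2a22 lies farthest below it at -3.24 with the longest bar (-0.89 without HFD+WBM replicate 3).

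The Cyp2c subfamily, in mouse the largest of those measured, makes epoxides and alcohols of arachidonic acid and metabolizes many drugs. Of its 13 members 3 were higher and none was lower in limma, beside 4.85% and 6.90% of all genes. In 10 the estimate was above 0, beside 50.7% of all genes, and the median was 0.24. All 3 higher genes were at or above the 75th percentile of signal. The sequences before the starts of Cyp2c37 and Cyp2c50, which neighbour each other closely on chromosome 19 with Cyp2c54 between them, are shown because both genes passed the test and their sequences are alike (RefSeq, GRCm38.p6, capitals as above).
Cyp2c37 (chr19:39992174-39992423, plus strand): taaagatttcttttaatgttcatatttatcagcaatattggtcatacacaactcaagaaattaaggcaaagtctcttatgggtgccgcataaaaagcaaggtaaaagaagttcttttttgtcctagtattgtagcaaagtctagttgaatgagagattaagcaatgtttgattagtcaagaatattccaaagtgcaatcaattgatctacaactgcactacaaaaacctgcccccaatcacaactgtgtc
Cyp2c50 (chr19:40089429-40089678, plus strand): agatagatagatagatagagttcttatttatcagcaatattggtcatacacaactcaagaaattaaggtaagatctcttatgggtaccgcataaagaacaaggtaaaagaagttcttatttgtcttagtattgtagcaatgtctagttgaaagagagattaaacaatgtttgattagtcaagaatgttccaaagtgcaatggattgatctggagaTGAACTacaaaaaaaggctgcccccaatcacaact
The windows were 84.3% identical, the highest value among the 45 pairs of Cyp2c windows compared, whose median identity was 49.5%. Cyp2c54, Cyp2c39 and Cyp2c23 were not in this comparison, so the likeness of Cyp2c54 to its neighbours is not given. None of the 4 motifs was in the Cyp2c37 window, and the Cyp2c50 window held AGTTCA on the minus strand from position -35, which 11.8% of all windows hold on either strand.

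Cyp2c37, an arachidonic acid hydroxylase, had log2 signals of 12.32, 11.93, 11.93 and 11.61 with HFD and 12.29, 12.72, 12.36 and 12.78 with HFD+WBM. HFD replicate 1 lay within the HFD+WBM range and the other 3 HFD mice lay below it. The log2 fold change was 0.59 (SE 0.19), 1.51-fold, with an adjusted p of 0.38 in limma and an exact permutation p of 0.057.

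Cyp2c66 had 10.42, 10.13, 10.08 and 9.68 with HFD and 10.38, 10.79, 10.46 and 10.86 with HFD+WBM. The pattern over mice was that of Cyp2c37, with HFD replicate 1 alone inside the HFD+WBM range. The log2 fold change was 0.55 (SE 0.20) with an exact permutation p of 0.057, and among left-out mice it did not pass without HFD replicate 4 (0.41), without HFD+WBM replicate 2 (0.49) or without HFD+WBM replicate 4 (0.47). Cyp2c50 had 12.48, 11.87, 11.94 and 11.33 with HFD and 12.34, 12.53, 12.29 and 12.60 with HFD+WBM, and HFD replicate 1 lay within the range of HFD+WBM. Its log2 fold change was 0.54 (SE 0.23) with an exact permutation p of 0.086, and it passed in 8 of the 17 other settings only. It no longer passed when any 1 mouse other than HFD replicate 1 was left out, with differences of 0.48 to 0.58, or 0.34 without HFD replicate 4.

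Cyp2c54, which lies between these genes, had 11.97, 11.22, 11.18 and 10.39 with HFD and 11.63, 11.65, 11.81 and 11.89 with HFD+WBM, a difference of 0.56 (SE 0.29) that did not pass. Cyp2c23, an epoxygenase known best from the kidney, had a difference of 0.44 (SE 0.26). Both passed without HFD replicate 1, the mouse that was highest of its diet in 24 of the 35 P450 genes at or above the 75th percentile of signal. Cyp2c29, a major epoxygenase of mouse liver, had a difference of 0.24 (SE 0.15) and a 95% interval of -0.11 to 0.58. The differences of the other members that did not pass were 0.20 in Cyp2c38, 0.16 in Cyp2c39, 0.02 in Cyp2c55, 0.26 in Cyp2c65, -0.19 in Cyp2c67 and -0.08 in Cyp2c68.

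Cyp2c70, the hydroxylase that makes muricholic acids, the bile acids typical of the mouse, had the lowest estimate of its subfamily. It had 12.61, 12.71, 13.06 and 12.48 with HFD and 12.47, 12.45, 12.22 and 12.28 with HFD+WBM. Every HFD+WBM mouse was below every HFD mouse, the nearest pair being 12.47 and 12.48. The difference was -0.36 (SE 0.16), which did not pass p under 0.05 in limma (adjusted p 0.43) but did in 5 of the 17 other settings, with an exact permutation p of 0.029. Whether Cyp2c70 differed from the other Cyp2c genes was not tested.

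**Figure D3:**
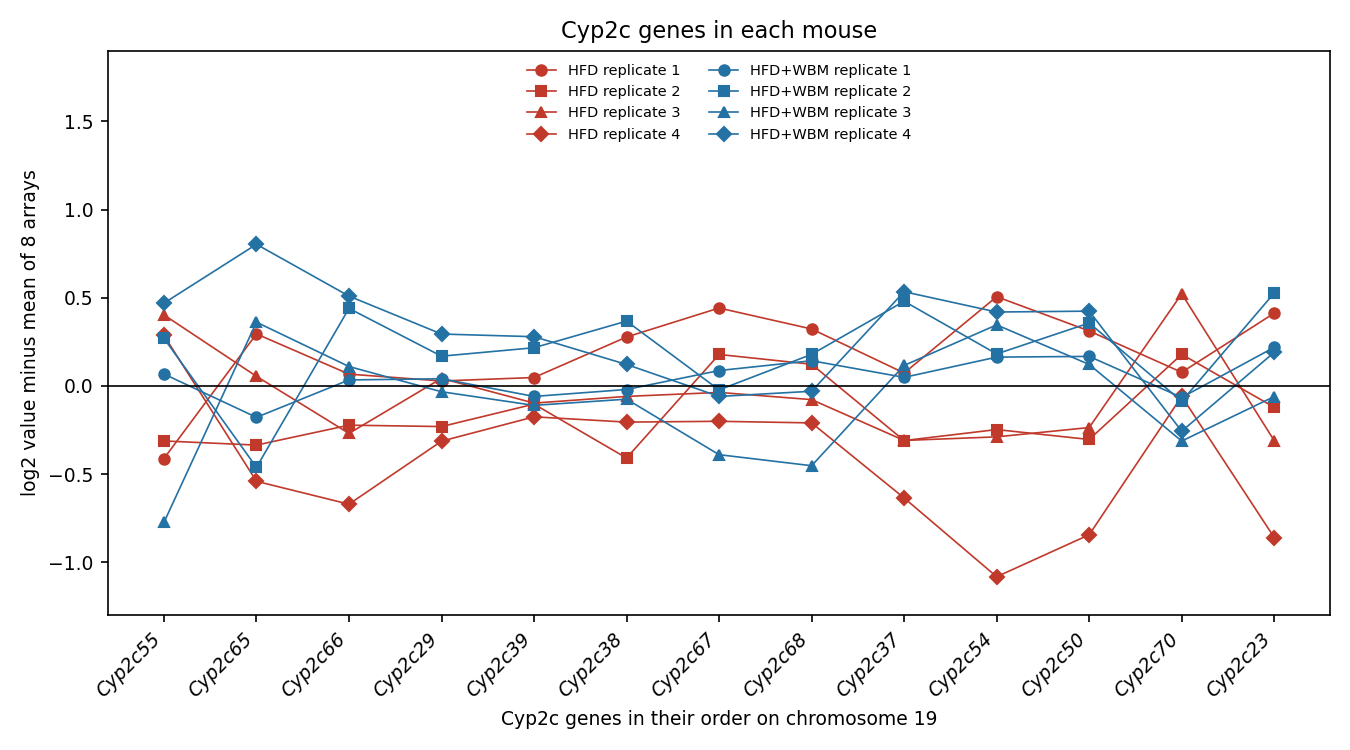
Log2 value of each of the 13 Cyp2c genes in each mouse minus the mean of that gene over the 8 arrays (vertical axis), with the genes in their order on chromosome 19, 1 line per mouse, 1 colour per diet and 1 marker shape per replicate number. In Cyp2c37, Cyp2c50 and Cyp2c66 the HFD+WBM mice lie above 3 of the 4 HFD mice, and in Cyp2c70 they lie below all 4.

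The Cyp2j subfamily, epoxygenases and hydroxylases of arachidonic and linoleic acid, held 1 higher and 1 lower gene among 6 in limma. The shares of all genes were 4.85% (higher) and 6.90% (lower). The median of the subfamily was -0.13 (-0.05 without HFD replicate 4). The 2 genes, Cyp2j9 and Cyp2j6, are adjacent among the measured members on chromosome 4. Their upstream sequences are shown because the genes moved in opposite directions (RefSeq, GRCm38.p6, capitals as above).
Cyp2j9 (chr4:96591486-96591735, minus strand): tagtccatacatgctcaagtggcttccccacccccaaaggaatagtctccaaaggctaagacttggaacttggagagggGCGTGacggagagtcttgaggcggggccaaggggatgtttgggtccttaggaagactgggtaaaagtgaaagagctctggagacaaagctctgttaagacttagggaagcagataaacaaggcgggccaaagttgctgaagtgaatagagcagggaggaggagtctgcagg
Cyp2j6 (chr4:96553652-96553901, minus strand): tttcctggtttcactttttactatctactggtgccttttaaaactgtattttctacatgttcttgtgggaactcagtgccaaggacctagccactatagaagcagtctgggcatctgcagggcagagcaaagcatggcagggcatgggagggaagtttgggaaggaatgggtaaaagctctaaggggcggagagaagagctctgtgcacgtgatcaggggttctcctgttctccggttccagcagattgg
The windows were 43.3% identical, within the 42.2% to 52.7% of the pairs of this subfamily compared, which leave out Cyp2j13. Cyp2j9 held GCGTG from position -171, and Cyp2j6 held none of the 4 motifs.

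Cyp2j9, which is known from brain, had log2 signals of 7.97, 7.76, 7.65 and 7.57 with HFD and 8.36, 9.23, 7.88 and 8.71 with HFD+WBM. The ranges overlapped only through HFD+WBM replicate 3, the mouse that also had the lowest Cyp2b10 of its diet, and HFD replicate 1. The log2 fold change was 0.81 (SE 0.26), 1.75-fold, with an adjusted p of 0.38 in limma and an exact permutation p of 0.057, and was 1.03, over 2-fold, without HFD+WBM replicate 3. Cyp2j6 had 10.12, 10.21, 10.57 and 10.28 with HFD and 9.58, 9.88, 9.89 and 9.78 with HFD+WBM, so that every HFD+WBM mouse was below every HFD mouse. Its log2 fold change was -0.51 (SE 0.16), 1.43-fold lower, with an adjusted p of 0.37 in limma and an exact permutation p of 0.029, the smallest that this design allows. Cyp2j5, a bright gene of kidney and liver, had 12.62, 12.76, 12.91 and 12.66 with HFD and 12.57, 12.58, 12.63 and 12.63 with HFD+WBM, a difference of -0.14 (SE 0.13) that did not pass. The differences of Cyp2j11, Cyp2j12 and Cyp2j13 were -0.12, 0.42 and -0.27.

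Family 1, which AhR induces after exposure to planar aromatic compounds, had Cyp1a2 higher, Cyp1a1 lower and Cyp1b1 not past the test. Cyp1a2 is constitutively expressed in pericentral hepatocytes, and Cyp1a1 is hardly expressed in liver without an inducer. The sequences before both starts are shown because these neighbouring genes, which both respond to AhR, moved in opposite directions (RefSeq, GRCm38.p6, capitals as above).
Cyp1a1 (chr9:57697363-57697612, plus strand): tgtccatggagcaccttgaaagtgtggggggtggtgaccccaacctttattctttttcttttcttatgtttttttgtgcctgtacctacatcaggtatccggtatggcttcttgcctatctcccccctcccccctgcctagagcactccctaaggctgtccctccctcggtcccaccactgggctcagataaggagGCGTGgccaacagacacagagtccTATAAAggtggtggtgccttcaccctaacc
Cyp1a2 (chr9:57683656-57683905, minus strand): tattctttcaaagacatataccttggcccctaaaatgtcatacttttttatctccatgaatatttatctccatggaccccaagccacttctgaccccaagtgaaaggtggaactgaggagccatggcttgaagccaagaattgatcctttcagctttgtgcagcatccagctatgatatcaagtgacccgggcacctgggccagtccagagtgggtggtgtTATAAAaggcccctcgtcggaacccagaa
Cyp1a1 held TATAAA from position -30 and GCGTG from -54, Cyp1a2 held TATAAA from -29, and the windows were 42.4% identical. TATAAA was found in 21 of the 47 windows of the P450 genes (44.7%) and in 12.4% of all windows, AGGTCA in 31.9% against 14.0%, GCGTG in 19.1% against 28.2%, and AGTTCA in 8.51% against 11.8%. Windows were given for 44 of the 53 genes, 3 of them with more than 1, and windows of recent duplicates are not independent of each other.

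Cyp1a2 had log2 signals of 12.55, 12.10, 11.96 and 11.86 with HFD and 12.78, 12.55, 12.52 and 12.74 with HFD+WBM. The HFD+WBM mice lay within 0.26 of each other and above 3 of the HFD mice, and HFD replicate 1 lay inside their range. The log2 fold change was 0.53 (SE 0.18), 1.45-fold, with an adjusted p of 0.38 in limma and an exact permutation p of 0.057. Cyp1a1 had 5.34, 5.63, 5.77 and 5.54 with HFD and 5.48, 4.85, 4.83 and 4.26 with HFD+WBM, signals that are all below the median of all genes, 7.27. The ranges overlapped through HFD+WBM replicate 1 and HFD replicate 1. The log2 fold change was -0.71 (SE 0.24) with an adjusted p of 0.38 in limma and an exact permutation p of 0.057, and it did not pass with an offset of 64 before the log (-0.25) or where the prior variance followed the signal. Cyp1b1, which is expressed mainly outside hepatocytes, had 5.23, 5.03, 5.47 and 5.06 with HFD and 5.74, 5.47, 4.75 and 5.32 with HFD+WBM, also below the median, and a difference of 0.13 (SE 0.22).

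The Cyp2d subfamily, homologous to the human gene that metabolizes many antidepressants and beta blockers, had no member that passed among 10 in limma. Cyp2d10, Cyp2d11 and Cyp2d22 passed in the methods' t-test. Of the 10, 8 estimates were above 0, beside 50.7% of all genes, with a median of 0.13. The HFD mice were closest together in Cyp2d22, which had 12.11, 12.10, 12.09 and 12.13 with HFD and 12.18, 12.19, 12.41 and 12.48 with HFD+WBM. All HFD+WBM mice were above all HFD mice, the nearest pair being 12.13 and 12.18, and the difference was 0.21 (SE 0.14) with an exact permutation p of 0.029 and an adjusted p of 0.55 in limma. Cyp2d26, the brightest of the subfamily, had 13.32, 13.25, 13.40 and 13.17 with HFD and 13.34, 13.42, 13.35 and 13.61 with HFD+WBM, a difference of 0.14 (SE 0.14). Cyp2d9, a steroid hydroxylase of male liver, had a difference of 0.20 (SE 0.21) and a 95% interval of -0.28 to 0.68, and it was 0.09 without HFD+WBM replicate 3 and 0.41, past p under 0.05 in limma, without HFD+WBM replicate 4. Cyp2d13 and Cyp2d37-ps, which RefSeq lists as transcribed pseudogenes, had differences of 0.13 and -0.19. The remaining differences were 0.12 in Cyp2d10, 0.12 in Cyp2d11, 0.19 in Cyp2d34, -0.17 in Cyp2d40 and 0.72 in Cyp2d12, the last with HFD replicate 3 at 3.01 and the other 3 HFD mice at 5.95, 6.08 and 5.74. Without that mouse the difference of Cyp2d12 was -0.01.

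The Cyp3a subfamily, PXR targets that metabolize the widest range of drugs and hydroxylate testosterone, also had no member that passed among 6 in limma, with a median of 0.08 that was -0.06 without HFD replicate 2 and 0.16 without HFD replicate 1. Cyp3a11, the main drug-metabolizing member in mouse, had 12.81, 11.95, 12.47 and 12.50 with HFD and 12.60, 12.58, 12.03 and 12.75 with HFD+WBM. The mice of both diets covered the same range, and the difference was 0.06 (SE 0.23) with a 95% interval of -0.45 to 0.56. Cyp3a25, the brightest member, had 12.60, 12.16, 12.73 and 12.59 with HFD and 12.55, 12.63, 12.47 and 12.84 with HFD+WBM, a difference of 0.10 (SE 0.17). The signs of both differences turned when some mice were left out, as they did in 15 of the 53 genes. Cyp3a13 and Cyp3a57 had differences of 0.13 and 0.17. Cyp3a16 and Cyp3a44, which are female-biased, had differences of -0.89 and -0.16, and Cyp3a16 was 8.48 in HFD replicate 1, where the other 7 mice had 4.59 to 5.30. Without that mouse the difference of Cyp3a16 was 0.01, and the sign of Cyp3a44 turned without HFD replicate 1 or HFD+WBM replicate 3 (to 0.09 at most).

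Of the 10 listed P450 genes that are female-biased in mouse liver, 5 were measured alone (Cyp2b9, Cyp2b13, Cyp2c39, Cyp3a16 and Cyp3a44). None of these 5 passed p under 0.05 in limma. Before adjustment, Cyp2b9 passed in 2 of the 17 other settings, the methods' t-test and the prior variance that follows the signal. Cyp2b13 passed in 6 of the 17, among them quantile normalization, the offset of 64 and the prior variance that follows the signal. The remaining genes passed in none. The 95% intervals of the differences were -0.08 to 0.57, -0.03 to 0.74, -0.17 to 0.50, -2.55 to 0.77 and -0.85 to 0.53 in that order.

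Cyp2a22 had the widest spread of all 53 genes. It had 11.71, 9.76, 9.95 and 9.90 with HFD and 11.39, 5.80, 0.06 and 11.12 with HFD+WBM. HFD+WBM replicates 2 and 3 were below every other mouse, and replicates 1 and 4 were within the range of HFD. The difference was -3.24 (SE 2.16), which did not pass in limma, with an exact permutation p of 0.37. It passed p under 0.05 before adjustment only where the prior variance followed the signal, and the difference was -0.89 without HFD+WBM replicate 3. Cyp2a12, the other member measured alone, a steroid and bile acid hydroxylase, had 12.45, 11.60, 11.74 and 11.53 with HFD and 11.75, 11.65, 11.80 and 11.84 with HFD+WBM, a difference of -0.07 (SE 0.21) whose sign turned without HFD replicate 1.

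Of the 9 subfamilies with 1 member, none passed in limma. Cyp2e1 passed in the methods' t-test, and Cyp2t4 passed in 2 of the 16 other settings that tested it, without HFD+WBM replicate 3 (0.82) among them. Cyp2e1, which oxidizes ethanol and acetone and is induced by fasting and fat, had the highest mean signal of the 53 genes, 13.94, with 14.00, 13.80, 13.87 and 13.73 with HFD and 13.95, 14.07, 13.99 and 14.14 with HFD+WBM. The ranges overlapped, and the difference was 0.19 (SE 0.13) with a 95% interval of -0.11 to 0.49. Cyp2f2, which activates naphthalene and is periportal in liver, had a difference of -0.09 (SE 0.20), and Cyp2r1, the hydroxylase that starts the activation of vitamin D, had -0.10 (SE 0.22). Cyp2u1, a fatty acid hydroxylase, had -0.39 (SE 0.24). The differences of Cyp2g1, Cyp2s1, Cyp2t4 and Cyp2w1, whose means were below the median of all genes, were 0.20, -0.16, 0.54 and 0.30.

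By signal level, the P450 genes that passed upward were bright or of middle signal. Signals of different probe sets are not amounts of RNA that can be ranked, and the classes serve to show where a change is well measured. Of the 53 genes, 35 had a mean at or above the 75th percentile of all genes (8.60), and of these 4 were higher, where 4.33% of all genes in that class were, and 1 was lower, where 7.96% were. Their median log2 fold change was 0.13, and that of all genes in the class was -0.04. Of the 5 from the median to the 75th percentile, 2 were higher (Cyp2b10 and Cyp2j9) and none was lower in limma, where 4.76% and 8.61% of all genes were. Of the 13 below the median none was higher in limma and 1 was lower (Cyp1a1), where 5.15% and 5.51% of all genes were, with a median of 0.16 against 0.05.

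**Figure D4:**
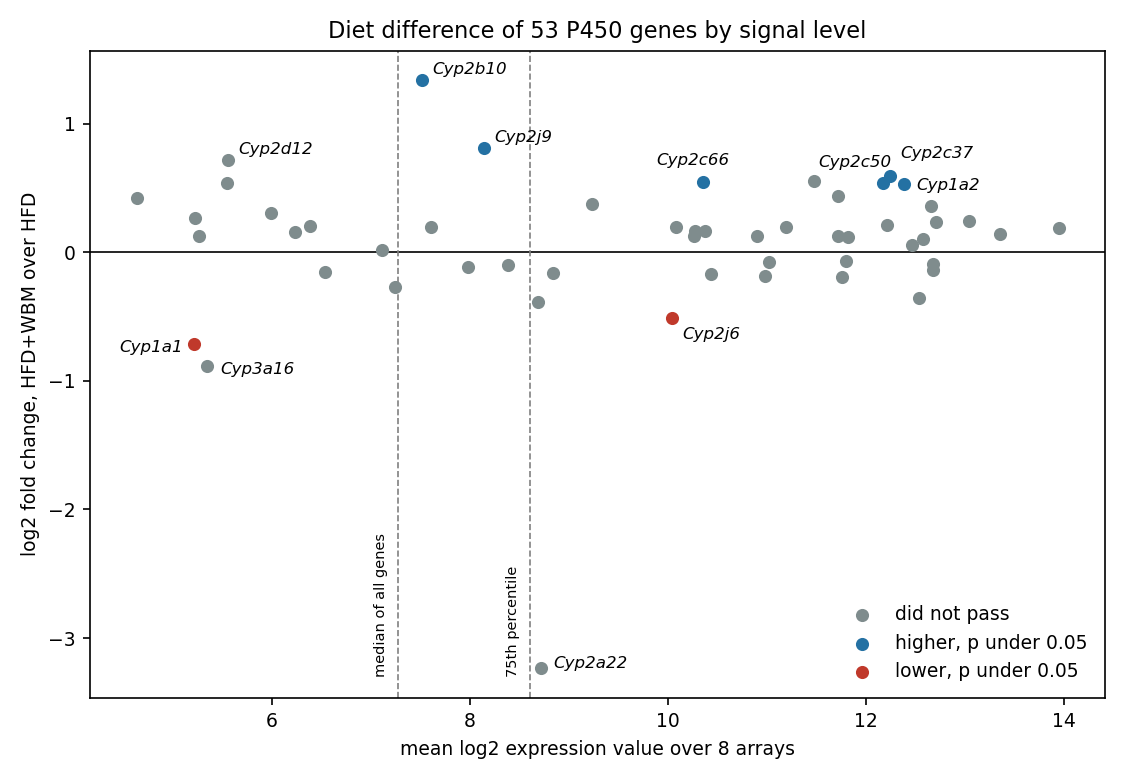
Log2 fold change (HFD+WBM minus HFD) of the 53 P450 genes against their mean log2 signal over the 8 mice, with dashed vertical lines at the median (7.27) and the 75th percentile (8.60) of all genes. The largest estimate below 0 is that of Cyp2a22, and the called genes other than Cyp1a1 lie to the right of the median.

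The 8 mice differed in how the 35 bright P450 genes stood as a group. HFD replicate 1 was the highest of its diet in 24 of the 35 and HFD replicate 4 the lowest in 18. HFD+WBM replicate 4 was the highest of its diet in 17, and HFD+WBM replicate 1 the lowest in 16. The median deviation of these genes from their means over all mice was 0.09 in HFD replicate 1 and -0.11, -0.07 and -0.18 in HFD replicates 2 to 4, and it was 0.02, 0.10, 0.07 and 0.19 in HFD+WBM replicates 1 to 4. The value of HFD replicate 1 thus lay among those of HFD+WBM, and those of the other 3 HFD mice lay below all 4. Without HFD replicate 3, the array farthest from the others, 5 genes were higher and 2 lower, beside 5.3% and 6.42% of all genes. The median over the 53 genes was then 0.11, against -0.04 over all genes.

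Of 5 probe sets that name several P450 genes, 1 was higher and 1 lower at p under 0.05 before adjustment in limma, where 4.80% and 5.97% of all probe sets were, and neither can be given to a single gene. The set of Cyp2a5 and Cyp2a4, the former a coumarin and nicotine hydroxylase and the latter a female-biased steroid hydroxylase, had 12.87, 12.59, 12.66 and 12.62 with HFD and 13.15, 13.19, 13.32 and 13.44 with HFD+WBM. Every HFD+WBM mouse was above every HFD mouse, and the difference was 0.59 (SE 0.14) with an adjusted p of 0.42 in limma over all probe sets. A set of 4 genes, Cyp3a41b, Cyp3a44, Cyp3a41a and Cyp3a11, had 12.41, 10.62, 9.48 and 9.80 with HFD and 7.56, 6.82, 5.46 and 8.93 with HFD+WBM. Every HFD+WBM mouse was below every HFD mouse, the spread within each diet was wide, and the difference was -3.39 (SE 0.80) with an adjusted p of 0.42 in limma. The sets that name Cyp3a11 alone and Cyp3a44 alone had differences of 0.06 and -0.16, and the set of Cyp3a41b, Cyp3a44 and Cyp3a41a had -0.08. The differences of the remaining sets were -0.28 for Cyp2c69, Cyp2c67, Cyp2c68 and Cyp2c40 and 0.18 for Cyp3a59, Cyp3a57 and Cyp3a25. Probes of near-identical neighbours can also cross-hybridize in sets that name 1 gene, so values within the Cyp2b, Cyp2c, Cyp2d and Cyp3a clusters are uncertain to that extent.

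Of the regulators of P450 genes, 24 of 26 listed were measured, and 1 was higher and 1 lower, 4.17% each way beside the 4.85% and 6.90% of all genes. Cux2, a repressor of male-biased genes that is itself female-biased in liver, had 8.18, 8.26, 6.83 and 7.91 with HFD and 8.64, 8.72, 9.09 and 8.45 with HFD+WBM, a log2 fold change of 0.93 (SE 0.31) with no overlap. Stat5a, a mediator of growth hormone signalling, had 8.45, 8.51, 8.20 and 8.62 with HFD and 7.74, 8.10, 8.20 and 8.14 with HFD+WBM, with all HFD+WBM mice below all HFD mice by a margin lost in rounding, and a change of -0.40 (SE 0.16) that did not pass in 6 of the 17 other settings. The receptors themselves did not pass. Nr1i3 (CAR) had a difference of 0.30 (SE 0.22), Nr1i2 (PXR) of -0.03 (SE 0.18), and Ahr of 0.45 (SE 0.20), the last past p under 0.05 before adjustment in 8 of the 17 other settings.

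Of the listed electron donors and genes of heme synthesis and breakdown, 15 of 17 were measured (Por, the P450 reductase, was not analysed here). Of the 15, 2 were higher and 2 lower, 13.3% each way, beside 4.85% (higher) and 6.90% (lower) of all genes. Alas1, the rate-limiting enzyme of heme synthesis and itself a target of CAR and PXR, had 13.14, 12.76, 12.37 and 12.47 with HFD and 12.93, 13.10, 13.12 and 13.48 with HFD+WBM, a change of 0.47 (SE 0.21) that overlapped through HFD replicate 1 and did not pass in 9 of the 17 other settings. Fech, which inserts iron to complete heme, changed by 0.43 (SE 0.15), with all HFD+WBM mice above all HFD mice, and did not pass without HFD+WBM replicate 2 (0.38). Uros, an enzyme midway in the pathway, changed by -0.60 (SE 0.18), and Hmox1, which breaks heme down, by -0.58 (SE 0.18), both with all HFD+WBM mice below all HFD mice.

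Of the other targets of CAR, PXR and AhR, 23 of 29 listed were measured, and 2 were higher, 1 lower and 20 not past the test, with a median of 0.18. The called genes make 8.70% and 4.35% of this list, beside 4.85% and 6.90% of all genes. Ces2a, a carboxylesterase, changed by 0.49 (SE 0.15) and Abcc3, an exporter of bile acids and conjugates, by 0.57 (SE 0.18), both without overlap. Abcc2, with 0.29 (SE 0.14), also had all HFD+WBM mice above all HFD mice but did not pass in limma. Of all genes 3.21% lay above without overlap. Aldh1a7, an aldehyde dehydrogenase, changed by -0.39 (SE 0.17) and did not pass in 9 of the 17 other settings. Outside the P450 families, 1 of 9 pericentral genes was lower in limma (Rhbg, an ammonium transporter, -0.74 (SE 0.25)) and none was higher. The shares of all genes were 6.90% (lower) and 4.85% (higher). The median of the pericentral genes was 0.09. None of 7 periportal genes passed, with a median of -0.02.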

How the data were processed

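Liver RNA of 8 OVX mice, 4 fed with HFD and 4 with HFD+WBM, was measured on 1 array per mouse, and mice were grouped by the submitters' sample labels. The authors summarized background-corrected, normalized probe intensities per transcript by IterPLIER (Affymetrix Power Tools 1.8.6, also named in the submitters' processing notes) and deposited log2 values. How arrays were normalized to each other, whether an offset preceded the log and which genome build the array used are not given in the sources read here, so a low log2 value has no known background limit.

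Of 28944 probe sets, 21789 named 1 gene, 1621 several and 5534 none in the platform annotation. Each of 19938 genes was represented by the probe set with the highest mean. HFD+WBM was compared with HFD in limma 3.58.1 (lmFit, eBayes; R 4.3.3) with no term but diet, and two-sided p-values received Benjamini-Hochberg adjustment over all 19938 genes. The study's thresholds were an unadjusted p under 0.05 together with a 2-fold change or more. The probe sets that name several genes were fitted with all 28944. Exact two-sided permutation tests used all 70 divisions of the 8 mice. The test was checked on simulated data. Other settings were arrays centred on their medians, quantile normalization, an offset of 64 before the log, the 50% brightest genes, the mean of a gene's probe sets, a prior variance that follows the signal, array weights, an equal-variance test per gene standing for the methods' unnamed one (the methods' t-test), the replicate number as a block, each mouse left out and a 1.5-fold threshold.

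Genes described were those past p under 0.05, those whose groups do not overlap, the brightest of each subfamily and well-known members, with the remaining members given by their differences. The members, gene lists and tests were chosen with earlier results of these data known. The symbols of all 53 P450 genes matched RefSeq by gene number, and Cyp2a4, Cyp2a5, Cyp2c40, Cyp2c69, Cyp3a41a, Cyp3a41b and Cyp3a59 were named only beside other genes. Since the labels number the mice of each diet and the study's methods name liver specimens, the spread is taken as that between mice. The number of arrays limits the precision.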

Additional observations from a re-analysis of the deposited data

Results flagged for a closer look

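In 5 groups of 4 mice, 1 mouse stood apart from the other 3 by a gap that took nearly the whole range of its group, where chance gives this in about 1 in 20 groups, or 5.3 of the 106 groups looked at. Cyp2a22 was 11.7 (log2 signal) in HFD replicate 1, with the next mouse at 9.95. Cyp2b13 was 12.7 in the same mouse, with the next at 12.4. Cyp2d12 was 3.01 in HFD replicate 3, with the next at 5.74. Cyp2j11 was 8.57 in HFD replicate 4, with the next at 7.90, and Cyp2t4 was 4.96 in HFD+WBM replicate 3, with the next at 6.02.

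Of the 5 probe sets that name several P450 genes and take no part in the counts of genes, 1 was lower and 1 higher. Both passed p under 0.05 before adjustment in limma, beside 5.97% (lower) and 4.80% (higher) of all probe sets. The mice of the diets did not overlap in either set, which held for 5.02% (lower) and 3.21% (higher) of all genes. The set of Cyp3a41b, Cyp3a44, Cyp3a41a and Cyp3a11 had a log2 fold change of -3.39, and that of Cyp2a5 and Cyp2a4 had 0.59. The adjusted p of each was 0.42 in limma over all probe sets. They cannot be given to a single gene.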

How the results depend on the processing

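The count of 6 P450 genes higher at p under 0.05 was 10 with an offset of 64 before the log (5.50% of all genes). It was 12 where the prior variance followed the signal (5.36%) and 10 in the methods' t-test (5.36%). With each mouse left out it was 4 to 10 (3.43% to 5.30% of all genes). HFD replicate 1 left out gave the 10 and HFD replicate 4 left out the 4. In the other settings the count was 5 to 8 (3.75% to 7.27% of the genes tested). The count of 2 lower genes was 2 to 3 throughout, also with each mouse left out (4.53% to 12% of the genes tested). Its members changed. With the offset Cyp2c70 was called and Cyp1a1 was not. Among the 50% brightest genes, which leave out Cyp1a1, Cyp2c70 was called. Where the prior variance followed the signal, Cyp2c70 and Cyp2a22 were called and Cyp1a1 was not. The 1 gene past the study's thresholds became 2 where the prior variance followed the signal, 4 at 1.5-fold, and 0 (without HFD+WBM replicate 1) to 2 (without HFD+WBM replicate 3, where Cyp2j9 reached 1.03 on the log2 scale) with each mouse left out. The median over the P450 genes was 0.11 to 0.18 with each mouse left out and 0.11 to 0.17 otherwise. With each mouse left out, the differences of 15 P450 genes changed sign, among them Cyp3a16 (-0.89 over all 8 mice and 0.01 without HFD replicate 1) and Cyp2d12 (0.72 over all 8 mice and -0.01 without HFD replicate 3). They ranged from -0.0148 (without HFD+WBM replicate 1) to 0.315 in Cyp1b1, from -0.171 to 0.136 (without HFD replicate 1) in Cyp2a12, from -0.186 to 0.0313 (without HFD+WBM replicate 1) in Cyp2f2, and from -0.278 to 0.0270 (without HFD+WBM replicate 3, 0.0048 without HFD replicate 3) in Cyp2r1. Those of Cyp3a11 ranged from -0.103 (without HFD replicate 2, -0.0298 without HFD+WBM replicate 4) to 0.210, of Cyp3a25 from -0.0201 (without HFD replicate 2) upward, and of Nr1i2 from -0.151 to 0.0881 (without HFD+WBM replicate 1), while Nr1i2 was 0.0270 with quantile normalization, 0.0116 without HFD replicate 3, 0.0061 leaving out HFD replicate 4, and 0.0147 where HFD+WBM replicate 3 was omitted. The cause of these changes was not tested. Replicate numbers did not pair the mice (correlations of the deviations of same-numbered mice were -0.04, -0.05, -0.12 and -0.02). With the replicate block 5 P450 genes were higher and 2 lower (3.75% and 5.06% of all genes; Cyp2c50 and Cyp2c66 no longer passed and Cyp2t4 did), 1 passed the study's thresholds, and the median stayed 0.14. Signal over background is not known for these arrays, which limits the dim genes most.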
